A study of Mus musculus with 8 samples.

Results

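The genes described here are the proteases that cut cartilage and connective tissue matrix, together with their inhibitors. They are 32 named genes in 4 classes, 13 of the Mmp family, 10 Adam and Adamts genes, 5 inhibitors (Timp1 to Timp4 and Reck) and 4 cathepsins. The array listed a probe set annotated to that symbol alone for 30 of them, among 18193 genes with such a probe set, and the brightest of these by mean signal over all arrays stands for each gene. Mmp15 and Adamts2 were not analysed here. A gene was tested where that mean was above 106, the median of all probe set means, which kept 22 of the 30, among 11013 genes with a tested probe set.

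RNA came from primary rib chondrocytes of FVB mouse embryos at E18.5, wild type in the control group and carrying a Hoxd4 transgene in the transgenic group. Hoxd4 is a homeobox transcription factor, and the study asked how its overexpression alters transcription in these cells. Embryos of 4 litters were pooled by genotype, so that each litter gave 1 control and 1 transgenic pool and each pool 1 array, 8 arrays in all. The rib cages were digested in 0.25% collagenase and 0.25% trypsin and strained through a 70 µm mesh, with no sort for a cell type. The sources used here do not give the promoter of the transgene, the cell type it drives, the number of founder lines or the number of embryos in a pool.

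Matrix metalloproteinases and ADAMTS enzymes are zinc proteases that are secreted or held in the cell membrane, and in growing cartilage they remove collagen and aggrecan ahead of bone formation and process newly made matrix. TIMPs are secreted proteins that plug the active site of these enzymes, and Reck is an inhibitor anchored in the cell membrane. Cathepsins work mainly in lysosomes, where they break down proteins taken up by the cell.

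The promoters of 3 Mmp genes whose signals were under the filter are shown first, because they hold a pair of motifs that no other matched gene of the set had together. RefSeq windows of 300 bases on the build GRCm38.p6, 250 before and 50 after each annotated start, were matched for 24 of the 32 genes (26 windows). Mmp2, Mmp16, Mmp17, Mmp19, Adamts4, Adamts5, Adamts7 and Ctsb had no entry. An AP-1 motif (TGAGTCA or its reverse complement TGACTCA) was found in 5.20% of all 32851 windows, and among the matched genes in Mmp3, Mmp10 and Mmp12. TATAAA, searched on the strand of the gene, was found in 8.32% of windows, and here in the same 3 genes and Adamts1. Both motifs stood together in 0.624% of windows. The following windows give the capitals to both motifs, all on the plus strand. They lie at chr9:7445572-7445871 for Mmp3, chr9:7502092-7502391 for Mmp10 and chr9:7347124-7347423 for Mmp12, for which 1 of its 2 windows is shown. The other window of Mmp12, at another annotated start, held neither motif.
Mmp3: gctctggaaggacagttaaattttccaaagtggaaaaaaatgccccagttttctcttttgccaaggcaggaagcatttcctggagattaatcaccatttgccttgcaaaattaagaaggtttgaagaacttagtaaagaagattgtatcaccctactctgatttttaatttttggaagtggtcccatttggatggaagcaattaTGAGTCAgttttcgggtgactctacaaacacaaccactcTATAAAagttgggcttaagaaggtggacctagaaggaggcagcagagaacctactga
Mmp10: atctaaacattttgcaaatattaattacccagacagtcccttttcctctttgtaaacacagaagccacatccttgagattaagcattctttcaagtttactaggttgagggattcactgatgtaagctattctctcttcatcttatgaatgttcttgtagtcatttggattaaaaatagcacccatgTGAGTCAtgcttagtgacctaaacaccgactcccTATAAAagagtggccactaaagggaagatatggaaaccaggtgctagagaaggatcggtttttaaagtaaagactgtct
Mmp12: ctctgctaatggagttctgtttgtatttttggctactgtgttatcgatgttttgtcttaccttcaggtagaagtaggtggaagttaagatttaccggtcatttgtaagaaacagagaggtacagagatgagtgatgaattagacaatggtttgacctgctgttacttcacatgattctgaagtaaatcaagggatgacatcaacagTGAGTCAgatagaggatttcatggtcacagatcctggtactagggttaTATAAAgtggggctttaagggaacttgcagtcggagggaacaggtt
The AP-1 motif began 46 bases before the start in Mmp3, 63 in Mmp10 and 44 in Mmp12. TATAAA began 7 bases before it in Mmp3 and 29 in Mmp10, and in Mmp12 it began 4 bases after it. A match describes these letters in this window and shows neither a bound factor nor a cause.

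A GC box (GGGCGG or its reverse complement CCGCCC) was found in 35.7% of all windows and in those of 17 of the 24 matched genes. The matched genes without it were Mmp3, Mmp8, Mmp10 and Mmp12, under the filter, and Adamts12, Timp4 and Ctsl, which were tested. Mmp11 and Mmp24, also under the filter, had it. It is shown for Mmp14, the membrane-type protease that activates Mmp2, and for Timp3, the inhibitor whose signals differed most between the groups among the inhibitors. The windows are chr14:54431348-54431647 for Mmp14 and chr10:86300162-86300461 for Timp3, both on the plus strand, with the GC boxes in capitals.
Mmp14: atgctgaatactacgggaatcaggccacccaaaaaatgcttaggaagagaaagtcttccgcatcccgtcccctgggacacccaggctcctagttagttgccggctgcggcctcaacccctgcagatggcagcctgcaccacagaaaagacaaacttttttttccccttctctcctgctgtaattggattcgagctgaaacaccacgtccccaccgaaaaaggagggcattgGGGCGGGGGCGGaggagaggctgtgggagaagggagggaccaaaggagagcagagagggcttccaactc
Timp3: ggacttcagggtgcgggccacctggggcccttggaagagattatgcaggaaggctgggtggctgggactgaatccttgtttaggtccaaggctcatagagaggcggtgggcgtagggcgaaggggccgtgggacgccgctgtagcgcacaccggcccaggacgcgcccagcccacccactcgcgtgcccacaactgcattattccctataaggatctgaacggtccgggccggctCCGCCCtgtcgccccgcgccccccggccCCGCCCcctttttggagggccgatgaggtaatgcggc
The boxes of Mmp14 stood side by side, beginning 19 and 13 bases before the start, and those of Timp3 began 15 bases before and 13 bases after it. The palindrome TCACGTGA, a motif known from lysosomal genes, was found in 0.974% of windows and among the matched genes in Ctsd, the aspartic protease of the lysosome. Its window is chr7:142387778-142388077 on the minus strand, with the palindrome in capitals and its GC boxes left in lower case.
Ctsd: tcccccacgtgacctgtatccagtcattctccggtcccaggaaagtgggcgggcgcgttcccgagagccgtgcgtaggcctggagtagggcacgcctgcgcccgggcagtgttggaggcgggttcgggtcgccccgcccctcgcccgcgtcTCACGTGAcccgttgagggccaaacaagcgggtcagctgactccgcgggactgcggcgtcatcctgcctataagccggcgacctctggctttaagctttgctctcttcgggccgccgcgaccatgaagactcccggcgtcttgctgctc
The palindrome began 99 bases before the annotated start of Ctsd.

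Over the whole array no difference between the groups passed the test, so the data on these genes are mostly levels and the limits set on a difference. Array medians ran from 100.5 to 115 signal units, and rank correlations between arrays were 0.932 to 0.942. The array had 2 probe sets for Hoxd4, both shared with Hoxd3, so neither checks the genotype labels. On 1421537_at the signal was 26.5 ± 17.0 (SD, n = 4) in controls and 20.6 ± 6.75 in transgenic pools, and on 1450209_at it was 82.6 ± 117 and 174 ± 174, with overlapping groups on both. All 12 chondrocyte markers passed the filter, 10 with a higher and 2 with a lower mean log2 signal in transgenic pools, and the sum of their signals was 299283 to 328975 in controls and 315582 to 340684 in transgenic pools. Xist signal was 9395 ± 3373 in controls and 2900.5 ± 3848 in transgenic pools (log2 difference -3.68), and the 3 tested Y-linked genes had differences of 0.75 to 0.92. The Xist difference was the lowest of all tested probe sets, and all 4 sex-linked genes had an unadjusted p under 0.05 by limma. By these genes the mix of female and male embryos was uneven between the groups. Timp1 lies on the X chromosome, and the part of embryo sex in its values or in others was not tested. The 7 fibroblast and perichondrium markers were all higher (median 0.04), and among markers of other cells the medians were -0.23 for 5 tested endothelial genes and -0.30 for 2 erythroid genes. Of the endothelial genes 2 were higher and 3 lower, 1 of them (Cdh5, -0.61) with an unadjusted p under 0.05 by limma. Medians were 0.06 for hypertrophic chondrocyte, 0.07 for skeletal muscle, 0.02 for granulocyte, 0.02 for osteoblast, -0.08 for macrophage and -0.15 for osteoclast markers. None of these markers passed an adjusted p under 0.05 by limma, and their part in the results below was not tested.

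None of the 22 tested protease and inhibitor genes differed between the groups at an adjusted p under 0.05 by limma with Benjamini-Hochberg adjustment over 22518 probe sets, where 0 probe sets (0%) passed. Without the transgenic pool of litter 4, 1 probe set passed, and without both pools of that litter 2 did, none of them standing for one of the 22 genes. At an unadjusted p under 0.05, 0 of the 22 passed, beside 740 of all tested probe sets (3.29%), or 1248 (5.54%) with the litter as a replicate block, where 0 (0%) passed an adjusted p under 0.05. Among the 22 genes, 12 had a higher mean log2 signal in transgenic pools and 10 a lower one (Mmp14 moved to the lower side, at -0.0063, under quantile normalization), with a median log2 difference of 0.0039 (0.0029 over all tested probe sets) and a range of -0.24 to 0.28. The lowest unadjusted p, by limma, was 0.11, for Timp3. In bulk RNA, fewer cells of a type and less RNA per cell cannot be told apart, here or in any result below.

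The limits on a difference were narrow for most of these genes. The 95% interval lay within a fold change of 1.25 in either direction for 16 of the 22 (72.7%, against 40.4% of all tested probe sets) and within 1.5 for 21 (95.5%, against 85.4%). For all 22 it lay within 2-fold. The gene past 1.5-fold was Mmp17. These folds are of signal plus 31.5, a constant that shrinks differences of dim genes, and hold for the brightest probe sets. Of the other tested probe sets, the interval of 1449334_at of Timp3 reached down to 0.45-fold, past 2-fold. Those of 1450974_at of Timp4 (0.60) and 1450104_at of Adam10 (0.66) went past 1.5-fold. The median coefficient of variation over the 8 arrays was 10.0% for the 22 genes, with a range of 3.25% to 25.2%, and 13.0% for all tested probe sets. Each of the 22 genes stands by its brightest probe set, while all tested probe sets include dimmer ones, where values are noisier. No comparison at like brightness was made, so these shares do not set the 22 genes apart. On the brightest probe sets the groups overlapped in all 22 genes, which is near the small shares over all tested probe sets. Of those, 1.18% had every transgenic pool above every control and 1.09% every transgenic pool below. Mmp2 was lower in the transgenic pool of all 4 litters (6.61% of tested probe sets), and no gene of the 22 was higher in all 4 (6.83%).

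**Figure D1:**
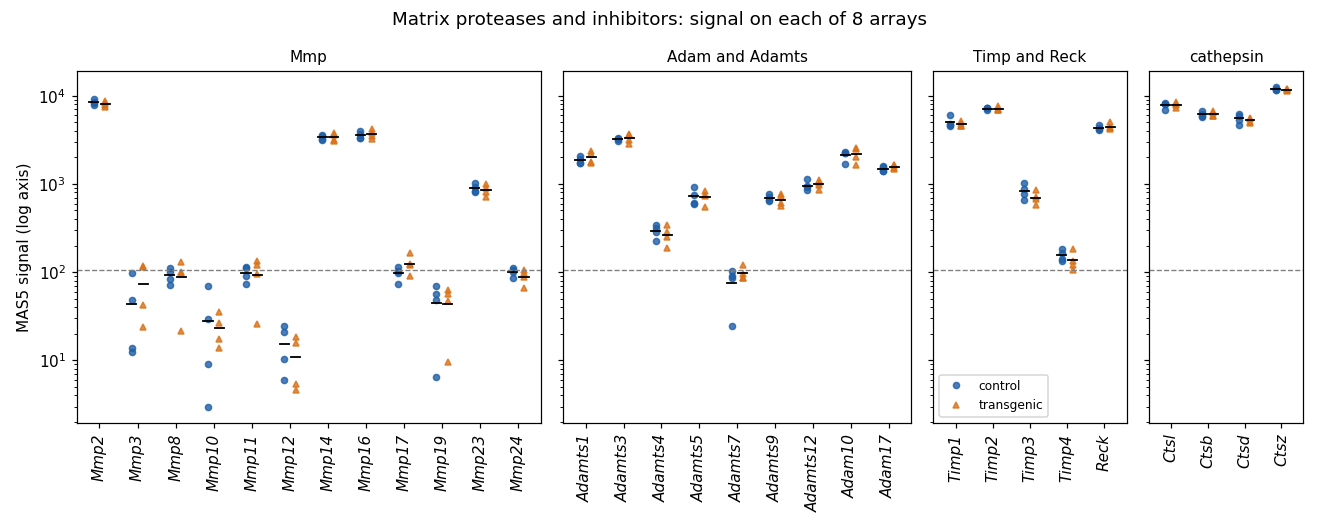
Signal (MAS5 units, log axis) of the 30 genes with a probe set on each of the 8 arrays, by class, with 4 control pools as circles, 4 transgenic pools as triangles and group means as bars. The dashed line is the filter at 106, under which 8 genes lie by their mean, 7 of them Mmp genes and 1 Adamts7.

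**Figure D2:**
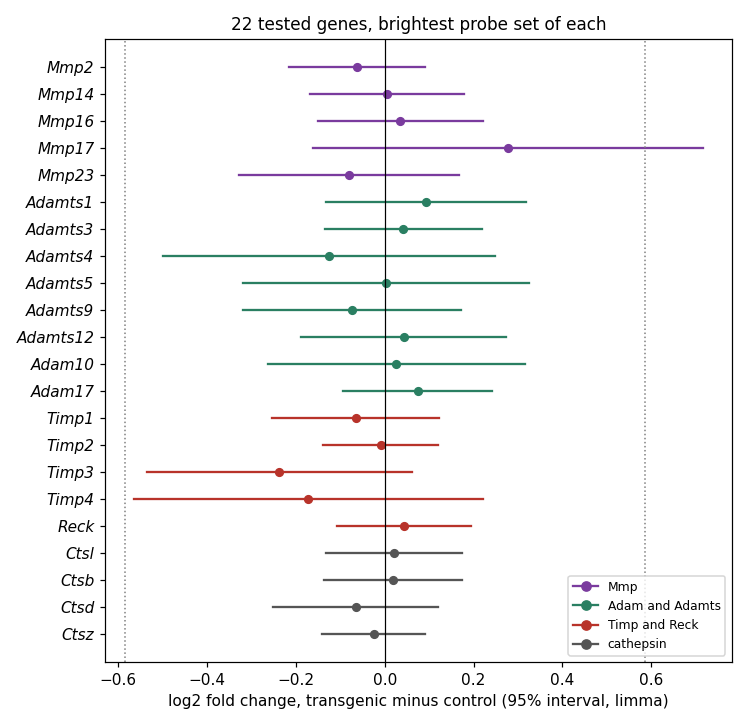
Log2 fold change, transgenic minus control, of the 22 tested genes with its 95% interval from limma, coloured by class. Every interval includes 0, and the dotted lines mark a fold change of 1.5 in either direction, which the interval of Mmp17 passes.

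The Mmp genes divided into a tested and an untested group. Of 12 with a probe set, 5 were tested (Mmp2, Mmp14, Mmp16, Mmp17 and Mmp23), and 7 were under the filter (Mmp3, Mmp8, Mmp10, Mmp11, Mmp12, Mmp19 and Mmp24). Mmp17 was just inside the filter, with a mean of 111, and Mmp11 just outside, with 95.9.

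Mmp2, a gelatinase, which is an enzyme that cuts denatured collagen, gave 8475, 9219, 8201 and 7787 in control litters 1 to 4. The transgenic pools of the same litters gave 8246, 8825, 7759 and 7439.6. Each transgenic pool was a little below the control pool of its own litter, while the groups overlapped almost wholly. Means were 8421 ± 603 and 8067 ± 604 (SD, n = 4), a log2 difference of -0.06 with a 95% interval of -0.21 to 0.09, and limma gave an unadjusted p of 0.40. Litter 2 was highest and litter 4 lowest in both groups.

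Mmp14, the membrane-type enzyme that activates Mmp2 at the cell surface, gave 3393 ± 226 in controls and 3410.5 ± 329.8 in transgenic pools. Its log2 difference was 0.0047, with a 95% interval of -0.17 to 0.18. It was higher in the transgenic pool of litter 3 alone. Mmp16, another membrane-type enzyme, gave 3575 ± 322 and 3668 ± 375, a difference of 0.04 (-0.15 to 0.22). Mmp23, a membrane protease that lacks the usual cysteine switch, gave 903 ± 105 and 854 ± 123, a difference of -0.08 (-0.33 to 0.17).

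Mmp17, a membrane-type enzyme held by a glycolipid anchor, gave 73.0, 114, 97.4 and 102 in controls. It gave 120.5, 122, 90.7 and 167 in transgenic pools. The highest value was transgenic and the lowest a control, but the groups overlapped in the middle of their ranges, and litter 3 ran the other way. Means were 96.7 ± 17.3 and 125 ± 31.3, a log2 difference of 0.28 with a 95% interval of -0.16 to 0.72 (limma, unadjusted p = 0.20). Its interval was the widest of the 22 genes, and its upper limit was 1.64-fold of signal plus the constant 31.5. For a gene this dim the limit on signal alone is wider.

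Other probe sets of the same Mmp genes did not always give the same value. On 1417281_a_at, the dimmer of the 2 tested for Mmp23, controls gave 907, 1011, 883 and 894, and transgenic pools 796, 780.1, 867 and 763. All 4 transgenic pools were below all controls, with means of 924 ± 58.9 and 801 ± 45.5 and a log2 difference of -0.20 (95% interval -0.38 to -0.01; limma, unadjusted p = 0.038). It was the only 1 of 50 tested probe sets of the 22 genes without overlap. Of all tested probe sets, 1.09% had every transgenic pool below every control and 1.18% every one above. On the brighter probe set of Mmp23 the transgenic pool was higher in litters 2 and 3, level in litter 4 and lower in litter 1. For Mmp16, 1422626_at gave 2113, 1639, 2101 and 1805 in controls and 2050.5, 2265, 2162 and 2474 in transgenic pools. That is a difference of 0.23 (0.02 to 0.43; limma, unadjusted p = 0.031), higher in 3 of 4 litters, while the 4 tested probe sets of Mmp16 ranged from -0.02 to 0.23. Those of Mmp14 ranged from -0.12 to 0.20.

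These were the only ones of 50 tested probe sets of the 22 genes with an unadjusted p under 0.05, which is 4% beside 3.29% of all tested probe sets. With the litter as a block there were 3 (6%, beside 5.54%), the third being 1449334_at of Timp3. None passed adjustment in either fit, with lowest adjusted p values by limma of 0.9997 without the block and 0.84 with it. Both probe sets were singled out after their values were seen.

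Of the 7 untested Mmp genes, 4 lie in 1 place. In the RefSeq gene order, 10 Mmp genes neighbour each other on chromosome 9, in the order Mmp13, Mmp12, Mmp1b, Mmp3, Mmp1a, Mmp10, Mmp8, Mmp27, Mmp20 and Mmp7. They include collagenases, stromelysins, matrilysin and macrophage elastase. Of the 9 with a probe set, 8 were under the filter, among them Mmp3, Mmp8, Mmp10 and Mmp12, and Mmp13 alone was tested. Of 8 Mmp genes of the set that lie elsewhere and had a probe set, 5 were tested. A signal under the filter does not show that the gene is silent, since probe sets differ in how well they bind.

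Mmp3, stromelysin 1, gave 48.3, 97.9, 13.8 and 12.5 in controls and 42.7, 23.7, 116 and 115 in transgenic pools. The values varied about 9-fold over the 8 arrays, with high and low ones in both groups. Mmp10, stromelysin 2, ranged from 2.97 to 70.3, with both extremes among controls. Mmp12, the macrophage elastase, ranged from 4.64 to 24.3. Without the filter, limma gave unadjusted p values of 0.23 for Mmp3, 0.99 for Mmp10 and 0.51 for Mmp12.

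Mmp8, the collagenase of neutrophils, gave 83.9, 113, 71.9 and 101 in controls and 102, 21.4, 96.8 and 131 in transgenic pools. The low transgenic pool of litter 2 lay outside the other values, which overlapped. The summed signal of 7 granulocyte markers was 2317 to 5855 in controls and 2453 to 6976 in transgenic pools. Over the 8 arrays log2 Mmp8 went with the mean log2 of these markers with Spearman's rho 0.79 (exact permutation p = 0.028, 0.11 after Benjamini-Hochberg adjustment over 4 relations). Pearson's r was 0.54 (exact permutation p = 0.17, adjusted 0.48), and 0.25 (p = 0.58) without the 2 arrays farthest from the median of the markers. The permutations for all 4 relations treat the arrays as exchangeable and leave out the pairing by litter.

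Macrophage markers were dim, with 5 of 9 measured ones tested and a summed signal of 1178 to 2434 in controls and 1080 to 2169 in transgenic pools. Over the 8 arrays Mmp12 correlated with their mean log2 at r = -0.04 and rho = 0 (exact permutation p = 0.92 and 1). Ctsz correlated with the same markers at r = -0.39 (exact permutation p = 0.36). Mmp14 correlated with the fibroblast and perichondrium markers at r = 0.44 (exact permutation p = 0.25), which completes the 4 relations. Among osteoclast markers Ocstamp, Dcstamp and Atp6v0d2 were under the filter. Acp5, Ctsk, Mmp9 and Calcr were tested, 1 higher and 3 lower in transgenic pools, with a median log2 difference of -0.15. The summed signal of the 7 was 2432 to 3649 in controls and 2012 to 3151 in transgenic pools. Most of it came from Ctsk, itself a protease, with 1292 to 2634 over the 8 arrays. The remaining dim genes were Mmp11, between 26.0 and 135, Mmp19, between 6.47 and 69.0, and Mmp24, between 65.3 and 111. Control and transgenic values overlapped in each of these.

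**Figure D3:**
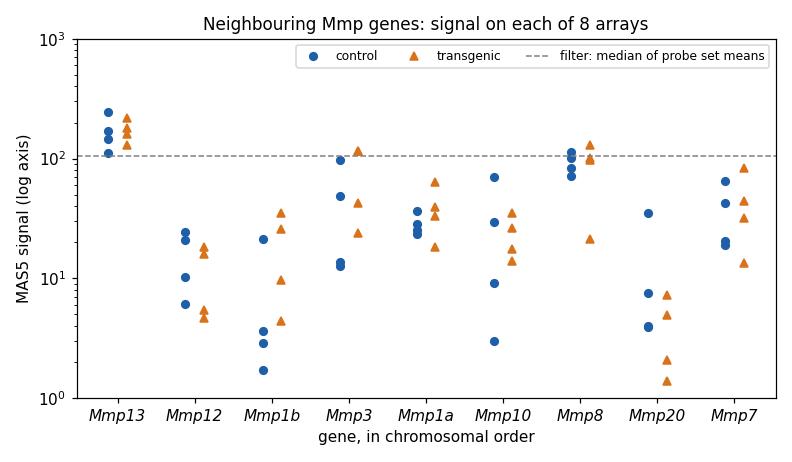
Signal (MAS5 units, log axis) of the 9 genes with a probe set among the 10 neighbouring Mmp genes of chromosome 9, in chromosomal order, with control pools as circles and transgenic pools as triangles. Mmp13 lies above the dashed filter line on all 8 arrays (111 to 246), and the other 8 genes lie under it by their mean.

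Of the 9 Adam and Adamts genes with a probe set, 8 were tested, 6 with a higher and 2 with a lower mean log2 signal in transgenic pools, and a median log2 difference of 0.03. Adamts7 was under the filter. Adamts3, which trims the N-terminal propeptide of fibrillar procollagens, gave 3101, 3244, 3318 and 3246 in controls. It gave 3711, 2867, 3593 and 3186 in transgenic pools. The transgenic pools lay on both sides of the controls, which were tightly grouped. Means were 3228 ± 90.9 and 3339 ± 387, a log2 difference of 0.04 with a 95% interval of -0.13 to 0.22.

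Adamts4 and Adamts5 are the main enzymes that cut aggrecan, the large proteoglycan of cartilage. Adamts4 gave 224, 340.5, 313 and 283 in controls and 252, 342, 283 and 187 in transgenic pools, with a wide overlap. Its means were 290.1 ± 49.95 and 266 ± 64.5, a log2 difference of -0.13 (95% interval -0.50 to 0.25). Adamts5 gave 595, 928, 744 and 615 in controls and 546, 836, 758 and 738 in transgenic pools. Litter 1 was lowest and litter 2 highest in both groups, and the difference of the means was 0.0032 (-0.32 to 0.33). All 3 tested probe sets of Adamts5 differed by at most 0.02.

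Adamts1 and Adamts9 cut versican and aggrecan. Adamts1 gave 1867 ± 162 and 2004 ± 308, a log2 difference of 0.09 (-0.13 to 0.32) with transgenic pools higher in 3 of 4 litters. Adamts9 gave 694 ± 61.8 and 662 ± 97.1, a difference of -0.07 (-0.32 to 0.17), higher in 1 of 4. Adamts7 and Adamts12 are related enzymes that cut cartilage oligomeric matrix protein. Adamts12 gave 959.6 ± 121 and 988 ± 111, a difference of 0.04 (-0.19 to 0.27). Adamts7 ranged from 24.2 to 121, the lowest value being the control of litter 1.

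Adam10 and Adam17 are sheddases, membrane proteases that release the outer part of receptors and cytokines. Adam10 gave 1676, 2328, 2235 and 2241 in controls and 1654, 2023, 2473 and 2542 in transgenic pools. Litter 1 was the lowest of each group. The groups overlapped, and the log2 difference was 0.03 (-0.26 to 0.32). Adam17 gave 1485 ± 105 and 1563 ± 74.4, a difference of 0.07 (-0.09 to 0.24), and its 3 tested probe sets all gave a small positive difference of 0.01 to 0.09.

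All 5 inhibitors were tested, with 1 higher and 4 lower in transgenic pools by mean log2 signal and a median log2 difference of -0.07. Timp2, the inhibitor that also takes part in activating Mmp2, gave 7188, 7339, 6879 and 7224 in controls. The transgenic pools gave 7147, 6809, 6834 and 7694. The groups overlapped, and the only litter in which the transgenic pool was higher was litter 4. Means were 7158 ± 196 and 7121 ± 412, a log2 difference of -0.0087 with a 95% interval of -0.14 to 0.12. The 5 tested probe sets of Timp2 ranged from -0.08 to 0.07.

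Timp1 gave 6002, 4790.1, 4606 and 4579 in controls and 5186, 4534, 4746 and 4526 in transgenic pools. Litter 1 was the highest and litter 4 the lowest of each group, and the control of litter 1 stood apart from the others. The log2 difference was -0.07 (-0.25 to 0.12). Without that control array it was 0.03, so its sign rests on 1 pool. Reck gave 4322 ± 200.4 and 4459.7 ± 355, a difference of 0.04 (-0.11 to 0.19), higher in transgenic pools in 3 of 4 litters.

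Timp3, which binds to the matrix and inhibits ADAMTS enzymes and Adam17 as well as MMPs, gave 659, 1026, 769 and 869.9 in controls. It gave 571, 673, 846 and 703 in transgenic pools. The transgenic pool was lower in litters 1, 2 and 4 and higher in litter 3, and the groups overlapped. Means were 831 ± 156 and 698 ± 114, a log2 difference of -0.24 with a 95% interval of -0.54 to 0.06. By limma the unadjusted p was 0.11 and the Benjamini-Hochberg adjusted p 0.9997. With the litter as a block they were 0.052 and 0.89. The difference was -0.13 without the control of litter 2, -0.15 without the transgenic pool of litter 1, -0.12 without both pools of litter 2 and -0.36 without both of litter 3. The unadjusted p by limma was 0.027 without the control of litter 1, 0.036 without the transgenic pool of litter 3 and 0.040 without both pools of litter 3.

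The 4 tested probe sets of Timp3 all had a lower mean log2 signal in transgenic pools, with differences from -0.55 to -0.17. They report on 1 gene in the same RNA and are not independent. On 1449334_at the controls gave 198, 302, 281 and 307 and the transgenic pools 75.1, 176, 301 and 210. The transgenic pool of litter 3 again lay among the controls, and the difference was -0.55 (-1.14 to 0.04; limma, unadjusted p = 0.066, or 0.012 with the block). On 1419088_at, where litter 3 did follow the others, litter 4 was the one with the transgenic pool higher. No probe set of Timp3 was lower in all 4 litters.

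Timp4 gave 165, 184, 139.8 and 133 in controls and 182, 122, 134 and 106 in transgenic pools. The groups overlapped, with litter 1 running against the others. Means were 155 ± 23.6 and 136 ± 32.6, a log2 difference of -0.17 with a 95% interval of -0.57 to 0.22. The second tested probe set, 1450974_at, gave 179, 166, 177 and 129 in controls and 137, 92.9, 106 and 157 in transgenic pools, a difference of -0.34 (-0.74 to 0.06; limma, unadjusted p = 0.088). There it was litter 4 that ran the other way.

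**Figure D4:**
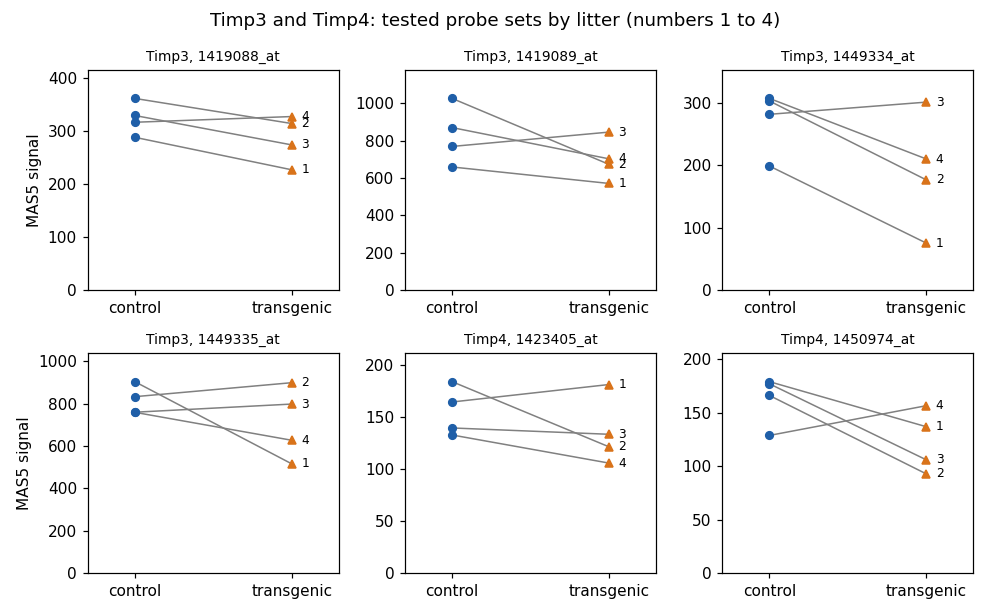
Signal (MAS5 units, linear axes from 0) of the 4 tested probe sets of Timp3 and the 2 of Timp4, with the control (circle) and transgenic (triangle) pool of each litter joined by a line and the litter number at the right. In each of the 6 plots at least 1 litter runs upward, against a lower transgenic mean.

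The 4 cathepsins were all tested, 2 higher and 2 lower, with a median log2 difference of -0.0035, and every one of their 95% intervals lay within a fold change of 1.25. Ctsz, a carboxypeptidase, gave 12632, 11936, 11532 and 11709 in controls and 11933, 11361, 11674 and 11998 in transgenic pools. The groups overlapped, and means were 11952 ± 482 and 11741 ± 289.8, a difference of -0.03 (-0.14 to 0.09). Ctsd gave 6280.0, 5903, 5269 and 4714 in controls. It gave 5619.9, 5479.9, 4921 and 5061 in transgenic pools. The transgenic values lay inside the range of the controls, with means of 5542 ± 691 and 5270.5 ± 333 and a difference of -0.07 (-0.25 to 0.12).

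Ctsl and Ctsb are cysteine proteases with broad activity. Ctsl gave 7841 ± 609 and 7950.1 ± 492, a log2 difference of 0.02 (-0.13 to 0.17), and litter 2 was highest and litter 4 lowest in both groups. Ctsb gave 6130.4 ± 483 and 6204 ± 417, also a difference of 0.02 (-0.14 to 0.17). Its 4 tested probe sets ranged from -0.18 to 0.06.

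Litters recurred in the order of the pools. In 10 of the 22 tested genes (45.5%) the lowest control and the lowest transgenic pool came from the same litter, against 34.2% of all tested probe sets. The highest of both groups came from the same litter in 11 (50%, against 33.1%). Both held in 6 genes (27.3%, against 13.5%), Mmp2, Mmp16, Adamts5, Adamts12, Timp1 and Ctsl. These shares are a description, and no test of them was made.

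A further 71 genes of the pathway were listed, other Mmp, Adam, Adamts and cathepsin genes, plasminogen activators and serpins among them. Of these 62 were measured and 46 tested, 20 higher and 26 lower in transgenic pools, with a median log2 difference of -0.0021. Neither Mmp13, the collagenase of hypertrophic chondrocytes (168 ± 57.3 and 172 ± 36.8), nor Mmp9, the gelatinase of osteoclasts (169 ± 57.0 and 146 ± 8.38), had an unadjusted p under 0.05. Adamts16 gave 134, 92.7, 165 and 244 in controls and 21.0, 47.0, 175 and 22.8 in transgenic pools. Litter 3 ran against the other litters, and the log2 difference was -1.15 (-1.99 to -0.31; limma, unadjusted p = 0.011).

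Ctsf, a lysosomal cysteine protease, gave 178, 199, 245 and 167 in controls and 64.9, 152, 237 and 68.7 in transgenic pools. It was lower in all 4 litters, as were Adam15 and Ctsk (3 of the 46, beside 6.61% of tested probe sets), while Adamtsl4, Cst3 and Bmp1 were higher in all 4 (3 of the 46, beside 6.83%). Groups of Ctsf overlapped, with a difference of -0.62 (-1.24 to -0.0027; limma, unadjusted p = 0.049). Adamts16 and Ctsf were the 2 of 46 genes (4.35%) with an unadjusted p under 0.05 by limma, beside 3.29% of all tested probe sets. With the litter as a block there were 3 (6.52%), beside 5.54%, the third being Ctsk. Ctsk, the collagen-cutting cathepsin of osteoclasts, gave 2039.7 ± 513 and 1807 ± 454, a difference of -0.17, with an unadjusted p by limma of 0.36 without the block and 0.015 with it. None of the 46 passed an adjusted p under 0.05 by limma with Benjamini-Hochberg adjustment, with or without the block.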

How the data were processed

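Total RNA of 4 control and 4 transgenic pools was labelled with biotin and read on 1-colour Affymetrix arrays, per the labels' protocols. The authors deposited linear intensities, 1 signal for each probe set, and the submitters' processing notes name MAS5 without its settings. The mean of each array without its top and bottom 2% was 500. MAS5 subtracts mismatch signal, so dim values are noisy.

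Of 45101 probe sets, 64 manufacturer controls were left out. Values were turned to log2(signal + 31.5), a constant equal to the median array's 25th percentile, which shrinks differences of dim genes. Log2 differences, intervals and fold limits are on that scale. The 22518 probe sets with a mean above the median were fitted by lmFit and by eBayes(trend=TRUE) (limma 3.58.1, R 4.3.3), two-sided, with Benjamini-Hochberg adjustment, and the script was tested on simulated data. Signals are given as mean ± SD over 4 arrays, and the number of arrays limits the precision. Names came from GEO's platform annotation (34945 probe sets with 1 symbol, 932 with several and 9160 unnamed here). Figures were drawn with matplotlib 3.10.9.

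Replicate numbers are those of litters, so same-numbered pools are paired. Deviations from group means correlated at 0.28, 0.17, 0.04 and 0.14 within litters 1 to 4 (mean 0.16) and -0.05 on average between litters. The litter as a block was an alternative, beside other constants, filters, normalization, probe set averages and left-out arrays.

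The genes, lists and tests were chosen with earlier results of these data known. Full statistics went to genes with an unadjusted p under 0.05, with groups that do not overlap, or with the brightest or dimmest tested probe set of their class, and others were added after their values were seen. P-values measure the spread between pools of different litters.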

Additional observations from a re-analysis of the deposited data

Results flagged for a closer look

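In 3 of 60 groups of 4 pools, 1 pool lay so far from the others of its group that its gap to the nearest one, as a share of the group's range, exceeded Dixon's critical value. Chance gives about 1 in 20. All 3 were the control pool of litter 1. Its Adam10 signal was 1676, the lowest of the controls, its Timp1 signal 6002, the highest, and its Adamts7 signal 24.2, the lowest and under the filter.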

How the results depend on the processing

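Of 20 alternatives, 7 genes kept the sign of their log2 difference in all that applied to them (Mmp2, Mmp17, Adamts1, Adam17, Timp3, Timp4 and Ctsd), and 15 changed it in at least 1. The median of the 22 genes stayed between -0.03 and 0.03. With the replicate block, paired by litter, 0 of the 22 passed an adjusted or unadjusted p under 0.05, and the unadjusted count over all probe sets was 1248 in place of 740. It was 1268 with the litter as a random block and 1838 of 45037 without the filter, and the lowest adjusted p of any of the 22 genes in any alternative was 0.89 by limma. Quantile normalization gave Mmp14 -0.0063. The mean of all probe sets of a gene gave Adamts3 -0.062, Adamts4 0.074, Adamts5 -0.053, Adamts12 -0.086, Ctsb -0.014 and Ctsz 0.034. The averages of Adamts3, Adamts4, Adamts5, Adamts12 and Ctsb took in a probe set under the filter. On it the difference was -0.17, 0.27, -0.26, -0.21 and -0.01, in that order. All probe sets of Ctsz were above the filter. The cause of these turns was not tested.

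Leaving out 1 array, or both of a litter, gave 0 to 2 probe sets past the adjusted threshold (1 without transgenic litter 4, 2 without litter 4) and 0 to 1 of the 22 genes with an unadjusted p under 0.05. That gene was Timp3, with p by limma of 0.027 without control litter 1, 0.036 without transgenic litter 3 and 0.040 without litter 3. Log2 differences that changed sign ranged from -0.069 to 0.059 for Mmp14, -0.025 to 0.089 for Mmp16, -0.15 to 0.069 for Mmp23, -0.030 to 0.11 for Adamts3, -0.24 to 0.014 for Adamts4, -0.079 to 0.13 for Adamts5, -0.16 to 0.0019 for Adamts9, -0.015 to 0.12 for Adamts12, -0.081 to 0.15 for Adam10, -0.11 to 0.025 for Timp1, -0.046 to 0.024 for Timp2, -0.020 to 0.10 for Reck, -0.035 to 0.062 for Ctsl, -0.027 to 0.067 for Ctsb and -0.045 to 0.0017 for Ctsz. Signals near background limit the 8 genes under the filter, whose values had no main test.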
